A study of Rattus norvegicus with 4 samples.

Results

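The genes of glycolysis and of lactate and pyruvate handling were followed in unmodified S16 cells, an immortalized rat Schwann cell line. The group was set by symbol and took in 40 genes of 17 steps, from glucose uptake to the kinases of pyruvate dehydrogenase, out of the 30708 genes in the files. All 40 were listed. Poly(A) RNA had been sequenced from S16 cells of passage 9, the population that was the parent of the edited lines of the study, and of passage 39, an older population of the same unedited line. Each population had 2 libraries that the labels call technical replicates, so there was 1 population per passage, and a technical replicate is no replicate of a passage. For this reason no test between passages was run, and values are means with the SD over the 2 populations (n = 2) beside the single libraries. The cells grew in standard medium in flasks, without neurons, and the RNA was taken from confluent cultures.

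Glycolysis converts glucose to pyruvate in the cytosol. Pyruvate is then reduced to lactate by lactate dehydrogenase and leaves the cell through monocarboxylate transporters, or it enters the mitochondrion and is oxidized by the pyruvate dehydrogenase complex. At most steps the genome holds several isozymes, each with tissues in which it is best known, and glial cells including Schwann cells are known for passing lactate to axons. Values are in RPKM, a read count divided by gene length in kilobases and by the 1000000s of reads in the library, which allows genes of different lengths to be set side by side.

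The libraries did not group by population. Over the 11025 genes that averaged 1 RPKM or more, the SD of the log2(RPKM + 1) difference was 0.339 and 0.334 between the 2 libraries of a population, but 0.0796 and 0.0823 between libraries of different passages with the same technical replicate number. Over the 28 genes of the group at that level, it was 0.348 and 0.311 within a population against 0.0606 and 0.0427 between same-numbered libraries. Read totals recovered from the ratios of RPKM values were 34.2 to 41.4 M per library (M, 1000000). They exceed the approximate number of reads per cell line that the paper states, for technical replicates pooled over sequencing lanes. That difference was not explained, and every read count and interval given here rests on the recovered totals. The labels call the libraries of one passage technical replicates, and whether any label was exchanged was not tested. Every value by passage, every value by number and every SD over populations holds for the labels as given. Each difference is given both by passage and by technical replicate number, and library values stand in the order passage 9 replicate 1, passage 9 replicate 2, passage 39 replicate 1 and passage 39 replicate 2. Of 10 Schwann cell markers 9 reached 1 RPKM, among them Pmp22 at 1255 RPKM and Sox10 at 176 RPKM, and Gap43 was listed at 0. Of 8 neuron markers 3 reached that level, the highest being Nefl at 93.8 RPKM, while Rbfox3, Snap25, Syt1, Nefh and Stmn2 did not exceed 0.0141 RPKM. Of 6 fibroblast markers 3 did, led by Col1a1 at 3588 RPKM, while Col1a2, Dcn and Lum averaged 0.339, 0.0033 and 0.0534 RPKM.

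The summed RPKM of the 40 genes was 1161, 1371, 1167 and 1361 in the 4 libraries. Its mean was 1265 ± 1.60 (SD, n = 2), or 0.380% of all RPKM. Both libraries numbered 2 lay above both libraries numbered 1, while the population means were 1266 RPKM at passage 9 and 1264 RPKM at passage 39. In all, 28 genes averaged 1 RPKM or more and 18 of at least 10 RPKM. The 5 genes above 100 RPKM were Pgk1, Aldoa, Pgam1, Ldha and Gpi, among 571 such genes in the whole table. The other 12 were under 1 RPKM, and 5 of them were listed at 0 in at least 1 library. The plot of levels by library shows several steps where one gene lay at or above 1 RPKM and the others under it, others with 2 or 3 such genes, and a single step, triosephosphate isomerase, with no gene above 1 RPKM.

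**Figure D1:**
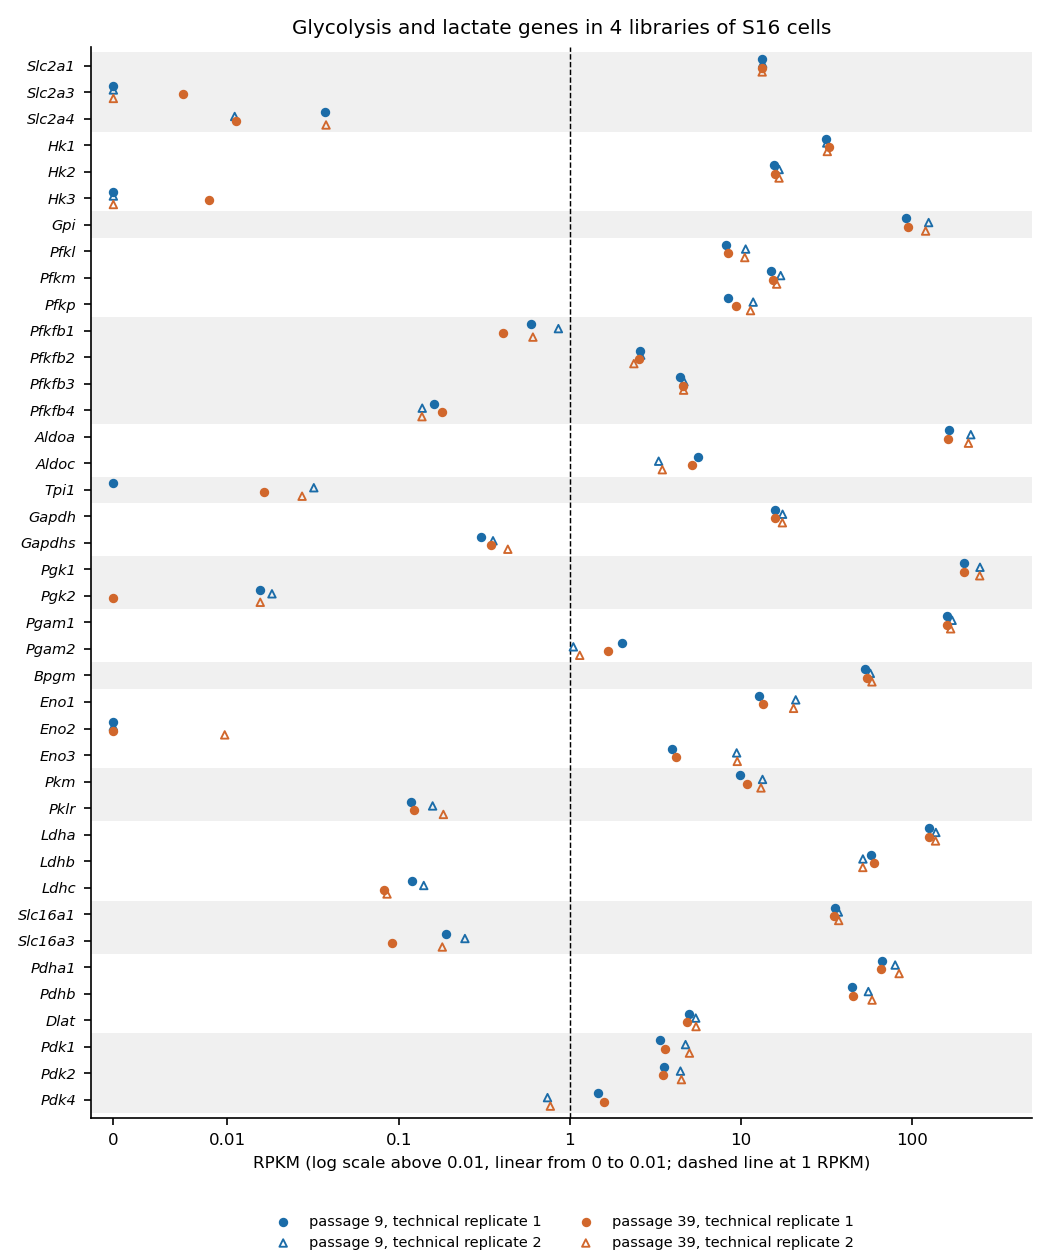
RPKM of the 40 genes in each of the 4 libraries, ordered by step from glucose uptake at the top to pyruvate dehydrogenase kinases at the bottom, with shading to separate steps. Each point is 1 library on an axis that is logarithmic above 0.01 RPKM, and 28 genes lie above the dashed line at 1 RPKM by their mean.

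Of the 3 glucose transporters in the group, Slc2a1 (GLUT1), the transporter of basal glucose uptake in most cells, was the highest. Its level was 13.28, 13.36, 13.19 and 13.27 RPKM, a mean of 13.3 ± 0.0625 (SD, n = 2), and of the 28 genes at or above 1 RPKM it had the smallest ratio of highest to lowest library. Slc2a3 (GLUT3), best known from neurons, had 1 read in 1 library and was listed at 0 in the other 3. Slc2a4 (GLUT4), the insulin-responsive transporter of muscle and fat, had 4, 1, 1 and 4 reads. Slc2a1 made up 99.8% of the summed RPKM of the 3 transporters. Outside the group, Slc2a8 stood at 5.15 to 5.90 RPKM, Slc2a6 at 4.33 to 4.92 RPKM and Slc2a10 at 1.53 to 2.86 RPKM. Slc2a2, Slc2a5 and Slc2a12 were under 1 RPKM.

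Of the hexokinases, which trap glucose in the cell by phosphorylation, both Hk1 and Hk2 were present. Hk1, the widely expressed form, stood at 31.5, 31.6, 32.6 and 31.9 RPKM. Hk2, the form known for its induction in muscle and in growing cells, stood at 15.5, 16.7, 15.7 and 16.7 RPKM. Hk1 was above Hk2 in every library, at 1.90 to 2.08 times its level, and held 66.4% ± 0.252 (SD, n = 2) of the summed RPKM of the hexokinases in the group. Hk3 had 1 read in 1 library. Outside the group, Adpgk, listed with the other genes of these steps, stood at 34.8, 40.1, 32.9 and 40.0 RPKM, above Hk1 in every library.

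Gpi, which turns glucose 6-phosphate into fructose 6-phosphate and has no second isozyme in the group, was among the highest genes at 92.3, 124.5, 94.4 and 119.6 RPKM. The libraries split by technical replicate number and not by passage. The next enzyme, phosphofructokinase, commits the sugar to glycolysis and is built from 3 kinds of subunit. The muscle subunit Pfkm was the highest at 14.98, 17.02, 15.34 and 16.13 RPKM, the platelet subunit Pfkp stood at 8.43, 11.8, 9.31 and 11.3 RPKM, and the liver subunit Pfkl at 8.18, 10.6, 8.43 and 10.5 RPKM. Here no gene was alone: the shares were 44.9%, 28.6% and 26.5% for Pfkm, Pfkp and Pfkl. The Pfkm span overlaps by 5143 bases in RefSeq that of Senp1, which stood at 15.9 to 17.8 RPKM. The part of Senp1 in the Pfkm reads was not tested. Pfkp was above Pfkl in all 4 libraries, by less than the width of their 95% intervals (for passage 9 replicate 1, 7.68 to 8.70 RPKM for Pfkl and 7.68 to 9.22 RPKM for Pfkp), and the difference was not tested.

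The bifunctional PFKFB enzymes set the level of fructose 2,6-bisphosphate, the strongest activator of phosphofructokinase. Pfkfb3, the form whose kinase activity most exceeds its phosphatase activity, known from proliferating cells, led at 4.41, 4.63, 4.60 and 4.61 RPKM. Pfkfb2, the heart form, followed at 2.55, 2.59, 2.55 and 2.36 RPKM. The shares of the step were 58.2% ± 2.01 for Pfkfb3 and 32.0% ± 0.366 for Pfkfb2 (SD, n = 2). Pfkfb1, the liver and muscle form, was under 1 RPKM at 0.593, 0.857, 0.408 and 0.608, and Pfkfb4, a form known from testis, did not exceed 0.180 RPKM.

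Aldolase splits the hexose into 2 trioses. Aldoa, the muscle and general form, was the second highest gene of the group at 163.6, 219.5, 162.0 and 212.7 RPKM. Aldoc, the brain form, stood at 5.59, 3.30, 5.13 and 3.46 RPKM. The genes moved in opposite directions between the libraries of a population, Aldoa being higher and Aldoc lower in both libraries numbered 2, so that their ratio ran from 29.3 to 66.6. Aldoa still held 97.6% of the step.

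Triosephosphate isomerase and glyceraldehyde-3-phosphate dehydrogenase gave values far under those of the enzymes around them. Tpi1, the single gene for the isomerase that joins the trioses, had 0, 2, 1 and 2 reads, which is at most 0.0319 RPKM. At these depths 3 reads of Tpi1 would be 0.0406 to 0.0491 RPKM. Gapdh, the dehydrogenase whose mRNA the study also used as its reference gene for PCR, stood at 15.8, 17.5, 15.8 and 17.4 RPKM, a mean of 16.6 ± 0.0113 (SD, n = 2) that ranked 4123 of all genes. Gapdhs, its form in sperm, did not exceed 0.434 RPKM. Pgk1, the kinase of the following step and the first to yield ATP, was the highest gene of the group at 200.6, 248.4, 199.5 and 247.5 RPKM, or 12.6 to 14.2 times Gapdh within a library. Its retrogene Pgk2, known from male germ cells, had 1, 1, 0 and 1 reads.

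The authors kept only reads that mapped to one place, and several of these genes have named pseudogenes in the rat genome. RefSeq (GRCr8) names 196 pseudogenes of 10 of the 40 genes: 81 of Gapdh, 31 of Eno1, 30 of Ldha, 19 of Pkm, 13 of Pgam1, 9 of Aldoa, 8 of Pgk1, 3 of Tpi1 and 1 each of Dlat and Ldhb. Those counts come from another assembly than the Rnor_5.0 build of the reads. The levels of these 10 genes are uncertain, because a read that also maps to a copy would not have been counted. How alike the copies are and how many reads were lost was not tested. In the plot of pseudogenes Ldha with 30 copies stood at 131 RPKM, Eno1 with 31 at 16.8 RPKM, and Tpi1 with 3 at 0.0189 RPKM. Only 7 of the 196 were listed in the files. The highest was Pkm-ps20 at 4.68, 7.01, 4.81 and 7.38 RPKM, followed by Dlat-ps1 at 2.83 to 3.31 RPKM, and the other 5 did not exceed 0.248 RPKM.

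**Figure D2:**
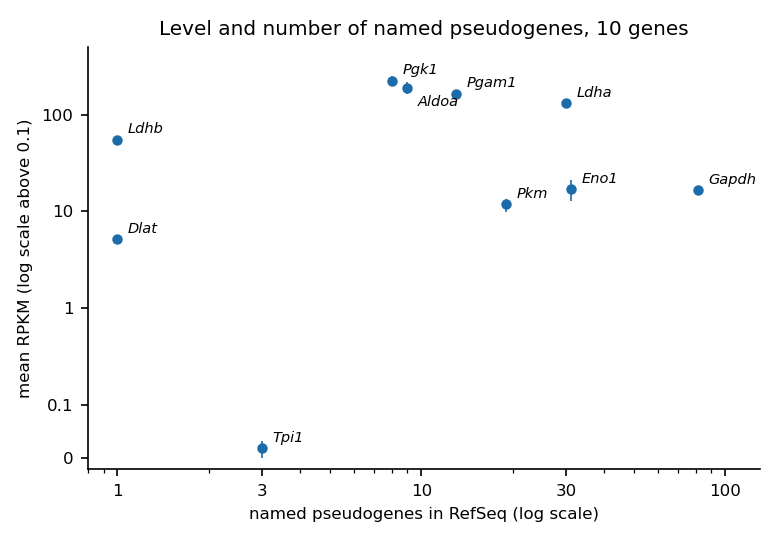
Mean RPKM of the 10 genes with named pseudogenes against the number of pseudogenes that RefSeq names for them, both on logarithmic axes (the vertical axis is linear below 0.1 RPKM). Bars run from the lowest to the highest library, and Gapdh with 81 copies and Tpi1 with 3 copies lie far below Pgk1 with 8.

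Pgam1, the general phosphoglycerate mutase, stood at 160.0, 170.7, 159.5 and 167.4 RPKM and held 99.1% of its step. Pgam2, the muscle form, was at 2.02, 1.05, 1.67 and 1.14 RPKM. Bpgm, best known from erythrocytes, where it makes the bisphosphoglycerate that lowers the oxygen affinity of haemoglobin, stood at 52.8, 56.8, 54.0 and 58.1 RPKM, a mean of 55.4 ± 0.852 (SD, n = 2). Of the 6 erythroid markers listed, only Epb42 reached 1 RPKM, at a mean of 1.13 RPKM, and the beta-globin gene Hbb was listed at 0. The summed level of those markers was 1.17 to 1.69 RPKM, and the source of the Bpgm reads was not tested.

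Among the enolases, Eno1, the general form, stood at 12.8, 20.8, 13.4 and 20.2 RPKM. Eno3, the muscle form, stood at 3.97, 9.42, 4.14 and 9.49 RPKM. Both were higher in the libraries numbered 2 of either passage, and Eno3 more so, so that the share of Eno1 fell from 76.3% and 76.5% in the libraries numbered 1 to 68.9% and 68.1% in those numbered 2. Eno1 is among the genes with named pseudogenes and Eno3 is not, so these shares carry that uncertainty. Eno2, the neuronal form, had 1 read in 1 library. Of 9 striated muscle markers 0 reached a mean of 1 RPKM, and their sum was 0.383, 0.984, 0.634 and 1.06 RPKM. Acta1 alone gave 0.252, 0.793, 0.325 and 0.863 RPKM of it, and the other 8 summed to 0.131, 0.192, 0.310 and 0.199 RPKM, which did not follow the replicate number at passage 39. The part of muscle cells in the Eno3 difference was not tested. The Eno3 span overlaps by 232 bases that of Spag7 in RefSeq, which stood at 24.8, 32.6, 24.6 and 31.6 RPKM, and with counting that ignored strand, the share of Eno3 reads that came from that overlap was not tested.

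Pyruvate kinase, the last step, was read almost wholly from Pkm, the form of muscle and proliferating cells, at 9.90, 13.3, 10.8 and 13.1 RPKM and 98.8% of the step. Pklr, the form of liver and red cells, did not exceed 0.182 RPKM. The symbol Pkm does not separate the spliced forms M1 and M2. The level of Pkm lay under that of Ldha, which uses its product, in every library, and Pkm is among the genes with named pseudogenes.

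Lactate dehydrogenase is a tetramer of A and B subunits. Subunit A, encoded by Ldha, is known for turning pyruvate into lactate in glycolytic tissues, and subunit B, encoded by Ldhb, for tissues that oxidize lactate. Both genes were high. Ldha stood at 125.1, 137.2, 125.0 and 136.6 RPKM, a mean of 131 ± 0.269 (SD, n = 2). Ldhb stood at 57.5, 51.4, 59.9 and 51.4 RPKM, a mean of 55.1 ± 0.849 (SD, n = 2). Ldha exceeded Ldhb 2.08-fold to 2.67-fold in the single libraries, with the lower ratios in both libraries numbered 1, and took 70.3% ± 0.342 of the step. These values carry the uncertainty from named pseudogenes, 30 of Ldha and 1 of Ldhb. Ldhc, the form in testis, had 7, 7, 4 and 5 reads. The plot of isozyme shares places this step, together with the hexokinases, phosphofructokinases, PFKFB enzymes, enolases and pyruvate dehydrogenase kinases, among those with more than 1 gene in use.

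**Figure D3:**
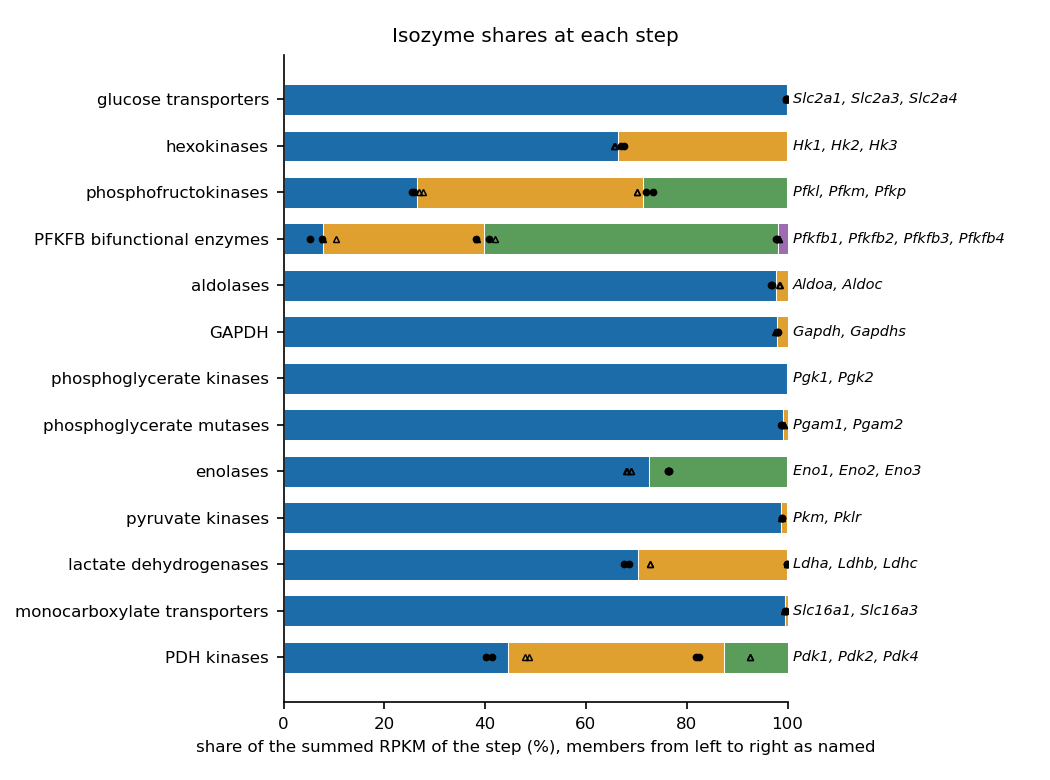
Share of the summed RPKM of each step held by each of its genes (bars, mean of the 2 populations, in %), with the genes of a step from left to right in the order named on the right. Black points mark the same boundaries in the 4 libraries, circles for technical replicate 1 and triangles for technical replicate 2. The leading gene held 97.6% or more at 7 of the 13 steps drawn and 44.6% at the lowest.

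The promoters of the lactate dehydrogenase pair are printed because the genes share a reaction and differ in level. They are the 250 bases before the start in RefSeq (GRCr8, 5′ to 3′ on the strand of the gene), Ldha on the plus strand at chr1:106507842-106508091 and Ldhb on the minus strand at chr4:177177409-177177658. Capitals mark ACGTG on either strand, only 1 form of the core of the element bound by hypoxia-inducible factors. These letters also lie within the E-box CACGTG. The form GCGTG was not counted, and it occurs in both stretches printed here.
Ldha: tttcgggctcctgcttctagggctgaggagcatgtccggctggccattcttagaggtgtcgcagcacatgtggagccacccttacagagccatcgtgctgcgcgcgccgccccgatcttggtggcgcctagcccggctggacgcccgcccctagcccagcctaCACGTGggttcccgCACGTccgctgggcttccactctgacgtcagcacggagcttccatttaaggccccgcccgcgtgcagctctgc
Ldhb: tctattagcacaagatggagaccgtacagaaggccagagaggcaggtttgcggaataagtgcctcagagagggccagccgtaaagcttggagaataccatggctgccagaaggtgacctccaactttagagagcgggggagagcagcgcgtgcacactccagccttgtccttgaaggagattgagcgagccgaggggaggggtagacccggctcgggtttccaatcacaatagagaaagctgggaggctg
The Ldha promoter held 3 matches to ACGTG, 2 of which lie on the opposite strands of 1 CACGTG, and the Ldhb promoter held 0 of that form. The glucose transporter Slc2a1 had 1 match, 51 bases before its start, and Pdhb had 4, which lie on the opposite strands of 2 CACGTG. Of the 40 genes, 37 had a promoter in the table, and 16 of them held a match. By promoter, 39.0% of 41 held one, against 16.6% of all 33469 promoters and 22.8% of the 8543 promoters of genes with at least 1 RPKM. A match describes letters and does not mean that a factor was bound.

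Lactate crosses the membrane through monocarboxylate transporters. Slc16a1 (MCT1), the widely expressed form, stood at 35.2, 37.0, 34.7 and 37.2 RPKM and held 99.5% of the pair. Slc16a3 (MCT4), known for lactate export from highly glycolytic cells, had 20, 22, 8 and 19 reads, or at most 0.244 RPKM. Slc16a1 was 152 to 382 times as high within a library, a ratio that rests on those few reads. The Slc16a3 span overlaps that of Csnk1d by 41457 bases in RefSeq, which stood at 41.6 to 48.9 RPKM, and its part in the Slc16a3 reads was not tested. Bsg (basigin), the chaperone that carries these transporters to the membrane, was at 161.9, 172.6, 159.0 and 165.1 RPKM, while Emb, another such partner, was listed at 0. The neuronal transporter Slc16a7 (MCT2) did not exceed 0.0129 RPKM.

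In the pyruvate dehydrogenase complex, which converts pyruvate to acetyl-CoA, the genes of both E1 subunits were above that of E2. Pdha1 (E1 alpha) stood at 66.3, 79.4, 65.8 and 83.7 RPKM, Pdhb (E1 beta) at 44.4, 55.3, 45.0 and 58.2 RPKM, and Dlat (E2) at 4.95, 5.43, 4.80 and 5.45 RPKM. The ratio of Pdha1 to Pdhb kept between 1.43 and 1.49, and that of Pdhb to Dlat between 8.97 and 10.7. Dlat is among the genes with named pseudogenes and Pdhb is not, so the second ratio carries that uncertainty. The remaining subunits Dld and Pdhx were at 45.1 to 52.0 and 10.4 to 13.8 RPKM. The kinases that switch the complex off were low. Pdk1 stood at 3.36, 4.74, 3.59 and 4.99 RPKM, Pdk2 at 3.53, 4.42, 3.49 and 4.48 RPKM, and Pdk4, known for its induction by fasting, at 1.46, 0.740, 1.58 and 0.769 RPKM. Pdk1 and Pdk2 changed order between libraries, with shares of 44.6% ± 0.740 and 42.7% ± 1.02 (SD, n = 2), so neither led beyond the spread. Pdk3, which is no member of the group but was listed with the other genes of these steps, was above them all at 12.3, 14.7, 12.8 and 14.7 RPKM. Mpc1 and Mpc2, the subunits of the mitochondrial pyruvate carrier, stood at 28.7 to 34.4 and 29.2 to 34.9 RPKM.

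By passage, the levels were close. Of the 28 genes with at least 1 RPKM, 0 differed by 0.32 or more on the log2(RPKM + 1) scale (a 25% rise or the same ratio downwards, the limit for a call here) between the population means, where 0.118% of all 11025 genes did (13 genes), and 0 differed 2-fold, where 0.00907% of all genes did. The log2(RPKM + 1) differences, passage 39 minus passage 9, ran from -0.08 for Pgam2 to 0.07 for Pdk1, with a median of 0.0021 against -0.0021 over all genes. Within the libraries numbered 1 alone and within those numbered 2 alone, 0 of the 28 were called. All 28 population means differed by less than 10% between passages. Both libraries of one passage lay outside the range of the other for 3 of the 28 genes, Hk1 (higher at passage 39), Slc2a1 and Pfkfb2 (both lower), where 6.21% of all genes did so (3.1% higher and 3.11% lower). These 3 differences were 0.03, -0.01 and -0.05 on the log2 scale.

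Among the 12 low genes, Pfkfb1 had the highest level and was lower at passage 39 within each replicate number. It stood at 0.593 against 0.408 RPKM in the libraries numbered 1 and at 0.857 against 0.608 RPKM in those numbered 2, a ratio of population means of 0.701. Slc16a3 and Ldhc were also lower at passage 39 within each number, with ratios of 0.627 and 0.647, on 8 to 22 and 4 to 7 reads. Gapdhs and Pklr were higher at passage 39 within each number, with ratios of 1.19 and 1.11, on 20 to 30 and 13 to 23 reads. For Pfkfb1 the 95% intervals overlapped in both pairs (0.451 to 0.767 against 0.281 to 0.573 RPKM, and 0.669 to 1.08 against 0.463 to 0.784 RPKM), and the difference was not tested. The Pfkfb1 span overlaps that of Apex2 in RefSeq, which stood at 5.11 to 6.61 RPKM. Rescaling each library to a common RPKM sum took Pfkfb1 past the minimum of 1 and made it the only gene of the group called by passage. That sum was 1000000, against 315847 to 351061 as deposited. All values thus rose, while the minimum of 1 and the 1 added before the log2 stayed.

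By technical replicate number, 7 of the 28 genes (25%) were called in the same direction in both passages, where 23.8% of all genes were. The 5 that were higher in replicate 2 were Gpi, Aldoa, Eno1, Eno3 and Pdk1 (15.2% of all genes were called higher), and the 2 that were lower were Aldoc and Pdk4 (8.56% of all genes were called lower). With the libraries scaled to a common sum, or by the median ratio, the split became 2 higher (Eno1 and Eno3) and 3 lower (Aldoc, Pgam2 and Pdk4), as these scalings moved the median of all genes by -0.13 and -0.08. Of all genes, 6.80% were then called higher and 17.1% lower at a common sum, and 8.52% and 12.4% by the median ratio. With the median difference of genes of like length removed, a step added after seeing the data, the split was 3 higher (Eno1, Eno3 and Pdk1) and 4 lower (Aldoc, Pgam2, Ldhb and Pdk4). The share of all genes called was not counted for that step. Eno1, Eno3, Aldoc and Pdk4 were thus called in the same direction in all 4 versions. Eno3 was the only gene past 2-fold, at 2.37-fold in passage 9 and 2.29-fold in passage 39, where 0.971% of all genes passed (0.29% higher). Aldoc fell to 0.590 and 0.675 of its level, and Pdk4 to 0.507 and 0.487. The labels attach no condition to the number, so it is a description of the libraries.

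The 2 libraries of either number did not overlap for 25 of the 28 genes (21 higher and 4 lower in replicate 2), near the 87.7% of all genes for which this held (57.2% higher and 30.5% lower). The 4 lower genes were Aldoc, Pgam2, Ldhb and Pdk4. The direction depended on the scaling: 12 higher and 13 lower at a common sum, and 15 higher and 8 lower by the median ratio. The shares of all genes that did not overlap were not counted under these scalings. The median log2 difference was 0.13 in the group and 0.10 over all genes. Of 9 expressed Schwann cell markers, 5 were called lower in replicate 2 (among them S100b, Mag and Erbb3) and 1 higher (Egr2), with the same counts under both other scalings. Of all genes, 8.56% were called lower and 15.2% higher as deposited. These shares were 17.1% and 6.80% at a common sum, and 12.4% and 8.52% by the median ratio. The part of these markers in the differences of the group was not tested. In bulk RNA a change in the share of cells and a change in RNA per cell cannot be told apart.

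**Figure D4:**
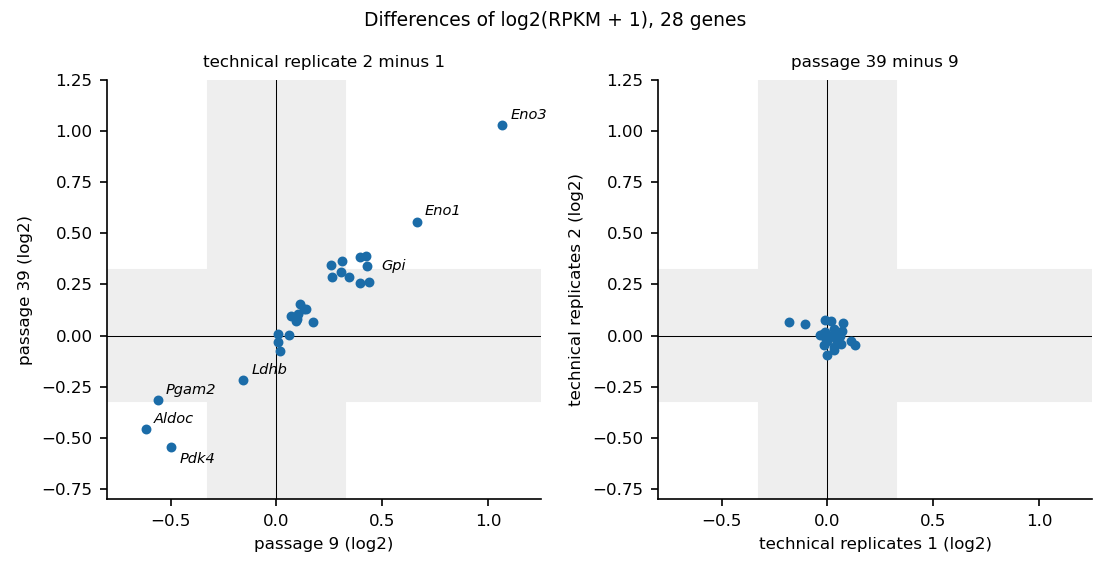
Differences of log2(RPKM + 1) for the 28 genes above the minimum of 1 RPKM. Left, technical replicate 2 minus 1 in passage 9 (horizontal) and passage 39 (vertical), where Eno3 lies above 1 in both and Aldoc and Pdk4 lie lowest. Right, passage 39 minus 9 between libraries numbered 1 (horizontal) and numbered 2 (vertical), on the same axes, where all 28 lie inside the grey bands of less than 0.32.

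Of the other genes of carbohydrate metabolism, 0 were called by passage on any of the lists. Their calls by replicate number stand against 15.2% of all genes called higher and 8.56% called lower. Of the 15 other genes of these steps that reached 1 RPKM, 1 was called higher in replicate 2 (Slc2a10) and 2 lower (Pdpr and Gpd2). In the pentose phosphate pathway, which makes NADPH and ribose, all 7 listed genes reached 1 RPKM. Taldo1 was the highest at 269.1, 306.5, 274.3 and 302.5 RPKM, above Pgk1, and Tkt was among those called higher in replicate 2, though not at a common sum. In gluconeogenesis 4 of 8 genes reached 1 RPKM, Pck1, Fbp1 and Fbp2 being listed at 0, and Pck2 and Slc37a4 were called higher and Pc lower. Slc37a4 was called under neither other scaling. Of 9 expressed genes of glycogen metabolism, Gyg1 and Ugp2 were called higher as deposited and under neither other scaling, where 0 were called higher and 2 (common sum) or 1 (median ratio) lower.

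Hif1a, the oxygen-regulated factor that is known to drive many glycolytic genes, stood at 22.6, 21.1, 21.7 and 20.9 RPKM. Its relative Epas1 was at 3.97, 1.81, 4.37 and 1.75 RPKM and was the 1 gene called of the 7 expressed factors and hydroxylases, lower in replicate 2. Both other scalings added Hif1an. Of 13 expressed hypoxia-responsive genes outside glycolysis, 5 were called higher (Adm, Ankrd37, P4ha1, P4ha2 and Plin2) and 1 lower (Ndrg1), against the same 15.2% and 8.56% of all genes. P4ha1 was called under neither other scaling, which left 4 higher, with 2 lower at a common sum and 1 by the median ratio. P4ha1, a collagen prolyl hydroxylase, stood at 115.2, 150.9, 111.3 and 152.3 RPKM, and Ndrg1 at 28.2, 15.1, 28.6 and 15.1 RPKM, so genes of this list moved both ways.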

How the data were processed

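Poly(A) RNA-Seq of S16 cells at passage 9 and passage 39 was analysed, with 2 libraries each. The authors read single ends of TruSeq libraries, aligned them to rn5 with STAR, kept reads with 1 mapping place and assigned them to genes with HTSeq, unstranded. Tool versions are not given in the sources used here. The authors deposited RPKM values by gene symbol, which were used as such. The file names speak of RefSeq, the methods of Ensembl gene models.

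The 40 genes and all lists were chosen with earlier results of these data known, and every member is named. Single values of some genes of the other lists are not reported here. Differences were taken on the log2(RPKM + 1) scale, which understates changes of low genes, where the mean reached 1 RPKM. A call means a difference of at least 0.32, and 2-fold was the stricter limit. Read totals and whole reads per gene (20333 of 20333 genes above 0) were recovered from the ratios of RPKM values, a step tested on simulated data. Intervals are exact 95% Clopper-Pearson intervals and, like the floor of 3 reads, cover counting error only. Nothing states that the technical replicates came from separate cultures. Python 3.11.15, numpy 2.4.6, pandas 2.3.3, scipy 1.17.1 and matplotlib 3.10.9 were used. Alternatives were 2 scalings, a pseudocount of 0.1 RPKM, other minimums, shares of reads and each library left out. A removal of the median by gene length, each replicate number alone, the group without genes that have named pseudogenes, the scalings on the other lists, and the muscle markers without Acta1 were added after seeing the data.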

Additional observations from a re-analysis of the deposited data

Results flagged for a closer look

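In 5 of the 40 genes 1 of the 4 libraries stood apart by Dixon's criterion, in which the gap to the nearest library is divided by the range. Chance gives such a gap in about 1 in 20 groups, or 2 of 40. Slc2a3 and Hk3 (gap over range of 1 in each) had 1 read in passage 39 replicate 1 and none elsewhere. Eno2 (1) had 1 read in passage 39 replicate 2 and none elsewhere. Pgk2 (0.848) had 1 read in each library except passage 39 replicate 1, where it had 0. Those 4 genes are at the level of single reads. Pfkfb3 (0.832) rests on 964 to 1161 reads, and passage 9 replicate 1 was lower, at 4.41 RPKM, than the highest of the others at 4.63 RPKM.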

How the results depend on the processing

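The count by passage, 0 of 28, became 1 (Pfkfb1) with the libraries scaled to a common sum. With 1 library left out it ran from 1 to 3: Eno3 alone without passage 9 replicate 1, passage 39 replicate 1 or passage 39 replicate 2, and Pgam2, Eno1 and Eno3 without passage 9 replicate 2. Leaving out a library sets libraries of unequal number against each other. With the replicate number as a block (both same-numbered pairs past the limit) the count by passage was 0. No paired test was possible because there is 1 population per passage. The count by number, 7, fell to 4 at a minimum of 5 RPKM. Leaving out a library removes its whole passage from this comparison, so that a call needs 1 passage only. The count was then 11 within passage 9 alone and 9 within passage 39 alone. For a raised minimum or a library left out, the share of all genes was not counted. Those counts, by passage or by number, therefore show nothing particular to the group. The summed RPKM was 3796 at a common sum, 1260 by the median ratio, 451 without the genes that have named pseudogenes and 1213 to 1318 with a library left out. The common sum of 1000000, against 315847 to 351061 as deposited, changes the unit of the first value.

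As shares of reads, which favour long genes, Hk1 held 55.3%, Pfkm 51.1%, Pfkfb3 52.5%, Aldoa 98.1%, Gapdh 97.2%, Pgam1 99.6%, Eno1 77.4%, Pkm 98.7%, Ldha 75.9%, Pdk1 67.4% and Pdha1 41.6% (below Pdhb). With a library left out the shares ran from 99.76% to 99.86% (Slc2a1), 65.96% to 66.87% (Hk1), 43.8% to 45.9% (Pfkm), 97.2% to 98.1% (Aldoa), 98.9% to 99.3% (Pgam1), 70.3% to 74.5% (Eno1), 98.72% to 98.85% (Pkm), 69.1% to 71.6% (Ldha), 56.8% to 57.1% (Pdha1) and 42.7% to 46.5% (Pdk1). The other 45 settings of these results moved by less than the spread or by less than 1.5 times. At these depths genes with a few reads cannot be ordered. The causes were not tested.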
